A study of Homo sapiens with 9 samples.

Results

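The regions described here are the places where the transcription factor NKX2-1 was found in the lung adenocarcinoma cell line NCI-H1819 and in no other line of the study. Overlapping peaks of the 4 NKX2-1 lists on chromosomes 1 to 22 and X were merged where they shared 1 bp or more. A merged region was kept where it held H1819 peaks and no peak from NCI-H2087 or from either list of NCI-H3122. This left 5971 regions, called H1819-only regions below, of 59679 merged NKX2-1 regions in all and of 13256 that held an H1819 peak. Each of them held 1 H1819 peak, and together they covered 2.98 Mb of the genome build hg18.

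The study mapped NKX2-1 by chromatin immunoprecipitation followed by sequencing in H1819, H2087 and H3122, which all carry an amplification of the NKX2-1 gene per the labels. An antibody from Bethyl Laboratories was used in every line, with 1 list from H1819, 1 from H2087 and 2 from H3122, here called replicates 1 and 2. FOXA1 was mapped in H3122 alone, with an antibody from Abcam. All lines were grown in the same medium with serum and received no treatment named in the labels. The 4 input libraries were not analysed here, and an input or unamplified line therefore does not stand beside the values.

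NKX2-1 (TTF-1) belongs to the homeodomain factors and specifies the lung and thyroid and keeps up surfactant and secretoglobin genes in the distal airway. In lung adenocarcinoma its gene is a lineage marker and, in a subset of tumours, the target of an amplification at 14q13. FOXA1 is a forkhead factor that can open compact chromatin and is often found beside lineage factors of endodermal tissues. Most binding of such factors lies at enhancers, which differ between cell types more than promoters do.

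The lists differ in length, which bears on every statement that a region is missing from a line. The H1819 list held 13486 peaks, the H2087 list 14441, and the H3122 lists 7469 and 48071. The FOXA1 list held 42437 peaks. The sources used here do not give read depth, so a region absent from a list was not called there at the depth of that library, and is not shown to be unbound. With 1 H1819 list there is no replicate check of any H1819-only region, and the tests below compare regions of these lists, not cultures. Nothing in the labels says that the H3122 lists came from separate cultures.

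H1819-only regions made up 45.0% of all H1819 regions (95% Wilson interval 44.2 to 45.9, counting error only) and 10.0% of all merged regions. Of the other 7285 H1819 regions, 7028 were also in H3122 and 257 were in H2087 but not H3122. The membership rests largely on the long H3122 list. Without H3122 replicate 1 there were 5989 H1819-only regions, and without replicate 2 there were 9465, or 70.7% of the H1819 regions.

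The score of a peak is the authors' own value, taken here as 10 times the −log10 of the peak caller's p-value. The members were chosen by the presence of called peaks, and a peak is called only above a score threshold, so scores are described here without a test. The lowest score was 50 in the list of H3122 replicate 1 and about 60 in each of the other lists. The H1819-only peaks ran from a score of 60.01 to 3100, with a median of 115.4 and quartiles of 77.1 and 207.8. The other H1819 peaks ran from 60.01 to 3201 with a median of 133.0, and the ranges overlapped almost wholly. Widths ran from 164 to 1845 bp with a median of 461 bp in H1819-only peaks, against 171 to 2382 bp with a median of 492 bp in the others. The share of H1819 regions found in H1819 only was 52.7% (50.0 to 55.4) in the lowest decile of score and 35.7% (33.2 to 38.4) in the highest. Among the 328 regions with a score of at least 1000 it was 27.4% (22.9 to 32.5), which is 90 regions. H1819-only regions were thus a smaller part of the strong H1819 peaks than of the weak ones.

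**Figure D1:**
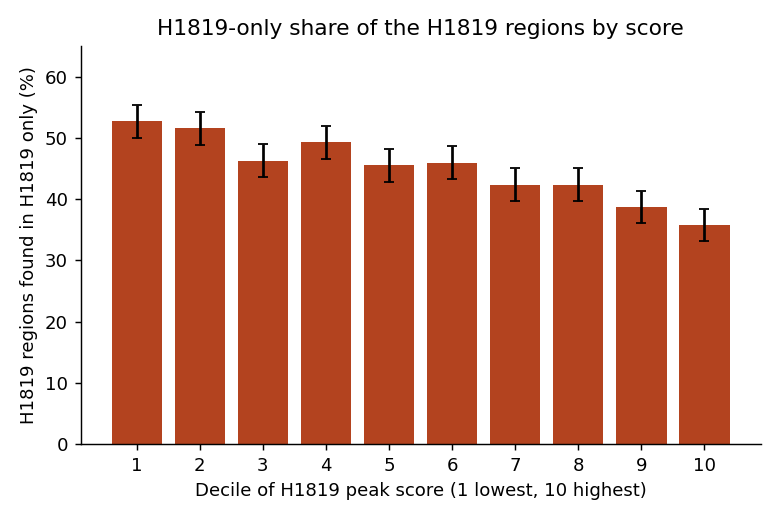
Percentage of H1819 NKX2-1 regions found in H1819 only (vertical axis) by decile of H1819 peak score (horizontal axis); bars give the share in 1 decile of about 1326 regions and error bars its 95% Wilson interval. The share is 52.7% in decile 1 and 35.7% in decile 10.

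The strongest H1819-only regions were 3 that shared a score of 3100. They lay in 7q31.1 (chromosome 7, 111789048 to 111790759), 1p21.2 (chromosome 1, 101220657 to 101221638) and 1q41 (chromosome 1, 221281200 to 221282162). They were 1712, 982 and 963 bp wide. The nearest NKX2-1 peak of another line lay 46440, 19102 and 33292 bp away. In each of the 3 the gap was many times the width of the peak.

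The 4th to 8th by score were in 6q15 (chromosome 6, 90368278 to 90369340, score 2686), 7q21.11 (chromosome 7, 80340869 to 80341773, score 2623), 10q23.1 (chromosome 10, 83567026 to 83567768, score 2603), 2q22.3 (chromosome 2, 147098218 to 147099173, score 2115) and 6p12.3 (chromosome 6, 46126387 to 46127381, score 2027). Their distances from the nearest peak of another line differed widely. The 10q23.1 region stood 216703 bp from any, the farthest of the 20 highest, and the 2q22.3 region 134133 bp. By contrast the 6p12.3 region lay only 137 bp from an H3122 peak and 198 bp from a FOXA1 peak, the closest of the 20.

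Across the 20 highest regions scores ran from 1643 to 3100 and widths from 655 to 1836 bp, with a median of 955.5 bp. They were spread over 8 chromosomes. The gap to the nearest NKX2-1 peak of another line had a median of 22829 bp, and 14 of the 20 lay beyond 10 kb. A gap of over 100 kb was seen in 4 of them, in 10q23.1, 2q22.3, 2p22.3 (chromosome 2, 35395012 to 35395890, score 1895) and 12p13.1. The 12p13.1 region (chromosome 12, 13412602 to 13414437, score 1708) was also the second widest of all H1819-only regions, at 1836 bp. The band 12p13.1 holds GPRC5A, a lung-enriched receptor gene, and CDKN1B, a cell cycle inhibitor gene, but hg18 gene positions were not used here, so no region is assigned to a gene.

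The 5 widest H1819-only regions were in 1p22.3, 12p13.1, 7q31.1, 6p24.2 and 20p12.2. The widest, at 1845 bp, lay on chromosome 1 from 87944358 to 87946202 with a score of 1535. The one in 20p12.2, the band of the Notch ligand gene JAG1, lay on chromosome 20 from 10587962 to 10589447, was 1486 bp wide and scored 1317. An H3122 peak lay 9849 bp from it. The 6p24.2 region (chromosome 6, 10690903 to 10692412) was wide at 1510 bp with a lower score of 681, so width and score did not always go together.

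At the edge of the rule, the H1819-only region nearest to a peak of another line lay in 2q37.1 (chromosome 2, 232235717 to 232236094, score 74.3), 1 bp from an H2087 peak. The next were in 11q22.3, 3p23, 18q11.1 and 2p23.1, with gaps of 3, 4, 6 and 9 bp. On the other side, the region kept out by the smallest overlap lay in 2q32.1 (chromosome 2, 186698102 to 186699008), where an H1819 peak met an H3122 replicate 2 peak of score 69.8 by 1 bp. The next were in 8p22, 12q13.13, 11q23.2 and 11p13, with overlaps of 7, 8, 15 and 16 bp, all with H3122 replicate 2. Few regions were this close to the edge. A gap of 50 bp or less was found in 23 H1819-only regions, 0.385% of them, and an overlap of 50 bp or less in 17 of the 7285 other H1819 regions, 0.233%. The median overlap in those was 472 bp.

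Gaps from H1819-only regions to the peaks of the other lines ranged widely. Some gap follows from the rule, and the gaps were not compared with those of random places. The gap to the nearest NKX2-1 peak of H2087 or H3122 had a median of 15434 bp, with quartiles of 4590.5 and 41861.5 bp. It was within 500 bp in 4.66% of regions and within 10 kb in 39.8%. For 588 regions, 9.85%, no such peak lay within 100 kb, and the most isolated had none for 2696553 bp. The nearest peak came from the long H3122 replicate 2 list in 83.3% of cases, from H2087 in 13.7% and from H3122 replicate 1 in 3.03%. The regions found in H2087 only were less isolated from the peaks of the other lines, with a median gap of 7879 bp and 10.9% within 500 bp; the gaps depend on list lengths and are given with no test.

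H3122 FOXA1 peaks were rare at H1819-only regions. An H3122 FOXA1 peak overlapped 363 of the 5971, or 6.08% (5.50 to 6.71), against 39.7% of all merged NKX2-1 regions. In the regions found in H2087 only it was 361 of 4339, or 8.32% (7.53 to 9.18). The H1819-only share was lower by 2.24 percentage points, a difference of -2.24 (Newcombe interval -3.28 to -1.23; Fisher's exact test, two-sided, adjusted p = 2.13e-05 over 3 comparisons). Regions in both H1819 and H2087 but not H3122 had FOXA1 in 18 of 257 cases, 7.0% (4.48 to 10.8). The difference from H1819-only regions, -0.925 points (-4.76 to 1.68), did not pass Fisher's exact test (adjusted p = 0.507), and its interval reaches well to both sides of 0. H1819 regions shared with H3122 had FOXA1 in 3531 of 7028 cases, 50.2% (49.1 to 51.4), which put H1819-only regions -44.2 points (-45.5 to -42.8) away. That comparison splits regions by H3122 NKX2-1 peaks, and FOXA1 was mapped in the same line, so it is not independent of the rule. H3122 replicate 2 regions without an H1819 or H2087 peak had FOXA1 in 48.1% (47.5 to 48.6). Shared regions were also wider, with a median of 867 bp against 461 bp. Within width quintiles the difference was -37.2 points (-38.9 to -35.4).

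FOXA1 was measured in H3122, the line whose NKX2-1 lists keep regions out, so a low share at H1819-only regions says nothing of FOXA1 in H1819. The shares also rest on the long H3122 list. Without replicate 2, FOXA1 was in 21.8% of H1819-only regions and 26.1% of H2087-only regions, a difference of -4.34 points (-5.53 to -3.15). The difference from regions in both H1819 and H2087 became -12.0 points (-14.3 to -9.84; adjusted p = 7.01e-29, Fisher's exact test). Regions with a replicate 2 peak then enter the compared sets, and FOXA1 was mapped in that same line. These differences are thus not independent of the rule, and say little of the H1819-only regions themselves. Where a region counted by its midpoint lying in a FOXA1 peak, the difference from H2087-only regions shrank to -1.02 points (-1.96 to -0.0951; Fisher's exact test, adjusted p = 0.0461).

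Among H1819-only regions, no difference in FOXA1 share with H1819 score was detectable. Over the 10 deciles of H1819 score it lay between 4.86% and 7.04%. In the lowest decile, with a median score of 62.7, 36 of 598 regions had FOXA1 (6.02%), and in the highest, with a median score of 577.8, 30 of 597 did (5.03%). The highest minus the lowest decile gave -0.995 points (-3.65 to 1.64; Fisher's exact test, adjusted p = 0.527 over 3 sets). In H1819 regions shared with H3122 the share was 69.0% in the highest decile and 41.5% in the lowest, a difference of 27.5 points (22.4 to 32.3; Fisher's exact test, adjusted p = 1.05e-24). H3122 NKX2-1 peaks separate these sets and FOXA1 was mapped in that line, so the unlike courses are not independent of the rule. Regions of H2087 alone had 10.6% in the highest and 7.14% in the lowest decile, a difference of 3.46 points (-0.349 to 7.31; Fisher's exact test, adjusted p = 0.141).

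In a logistic model over regions, an H1819 score higher by 1 unit of log10 went with an odds ratio of 0.778 (95% interval 0.545 to 1.11) for FOXA1 at H1819-only regions. At regions shared with H3122 the odds ratio was 3.35 (2.90 to 3.86). The ratio of the 2 odds ratios, their interaction, was 0.232 (0.159 to 0.341). It is a description only, since an H3122 NKX2-1 peak separates the 2 sets and FOXA1 was mapped in that same line. Without H3122 replicate 2, regions that this list excludes come in, and the odds ratio at H1819-only regions was 1.91 (1.66 to 2.21), in the opposite direction. The interaction stayed below 1 without it, at 0.416 (0.306 to 0.567). The comparisons by score, like those by gap below, were added once the data had been seen.

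**Figure D2:**
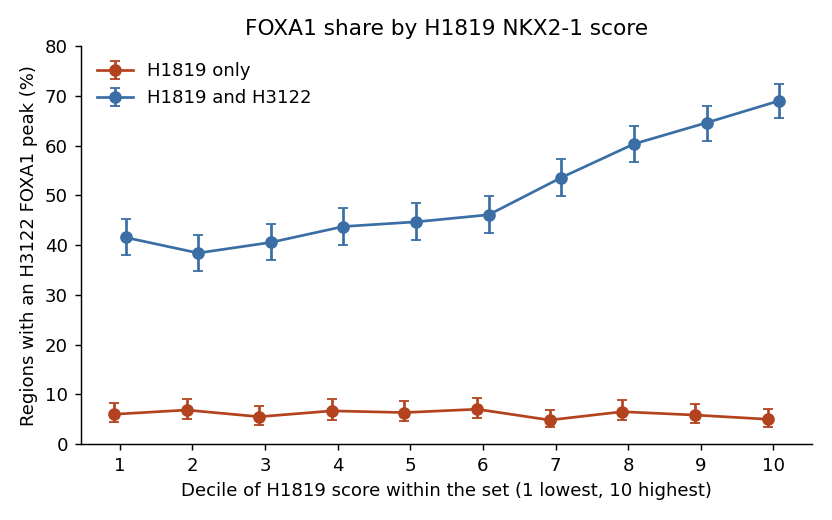
Percentage of regions with an H3122 FOXA1 peak (vertical axis) by decile of H1819 NKX2-1 score within each set (horizontal axis), for H1819-only regions and for H1819 regions shared with H3122; points are shares and error bars 95% Wilson intervals. H1819-only regions stay between 4.86% and 7.04%, while shared regions reach 69.0% in decile 10.

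None of the 20 strongest H1819-only regions had a FOXA1 peak, a number to be read beside the 6.08% of the whole set. The strongest that did was in 3q26.2 (chromosome 3, 170379476 to 170380467), with an H1819 score of 1271 and a FOXA1 score of 116.4. It was followed by 2q31.1 (chromosome 2, 173548560 to 173549542) with scores of 1064 and 120.6, and by 4q22.1 (chromosome 4, 89048240 to 89048955) with 765 and 64.8. The remaining 7 of the 10 strongest lay in 2p24.3, 1p34.2, 14q22.2, 4q13.1, 11q22.3, 9p24.3 and 6p22.3, with H1819 scores of 630 to 720 and FOXA1 scores of 75.3 to 265. An H3122 NKX2-1 peak lay 1042 to 45650 bp from 9 of these 10, and 173942 bp from the one in 2p24.3.

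Regions with and without FOXA1 were alike in the H1819 list, with median scores of 112.1 and 115.6 and median widths of 471 and 460 bp. The 360 FOXA1 peaks at H1819-only regions had scores from 60.2 to 2924 with a median of 114.8. All 42427 FOXA1 peaks on these chromosomes had a median of 139.0, and the 19232 without an H3122 NKX2-1 peak one of 99.6. H1819-only regions took up 1.81% of those 19232 peaks, and H2087-only regions 1.78%.

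H3122 FOXA1 peaks were more frequent at H1819-only regions that lay close to an H3122 NKX2-1 peak. Within 500 bp of an H3122 NKX2-1 peak it was found at 32 of 256 regions, 12.5% (9.0 to 17.1). Beyond 50 kb it was found at 49 of 1316, 3.72% (2.83 to 4.89), and the difference was 8.78 points (5.08 to 13.5; Fisher's exact test, adjusted p = 4.2e-07 over 2 sets). In between the shares stepped down with distance, at 10.6%, 7.01% and 5.14%. The score did not follow the same course, since median H1819 scores were 100.1 in the closest group and 119.6 in the farthest. In H2087-only regions the same contrast was 9.62% against 6.8%, a difference of 2.82 points (-0.648 to 6.43; Fisher's exact test, adjusted p = 0.124). Whether the contrasts of the lines differ was not tested. The contrast is not independent of the rule, which used the H3122 NKX2-1 lists, and FOXA1 was mapped in that same line. Of the 360 FOXA1 peaks at H1819-only regions, 348 overlapped no H3122 NKX2-1 peak. The rest can meet an H1819-only region only beside an H3122 NKX2-1 peak, and their part in the closest group was not tested. At a distance of more than 10 kb from any H3122 NKX2-1 peak, FOXA1 was in 4.63% of H1819-only and 7.19% of H2087-only regions, a difference of -2.55 points (-3.89 to -1.29). Closest to H3122 NKX2-1 peaks the order was reversed, given here with no test. The H1819-only share was 12.5% against 9.62% within 500 bp, and 10.6% against 9.83% from 500 to 2000 bp. From 2000 to 10000 bp it was 7.01% against 9.08%.

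**Figure D3:**
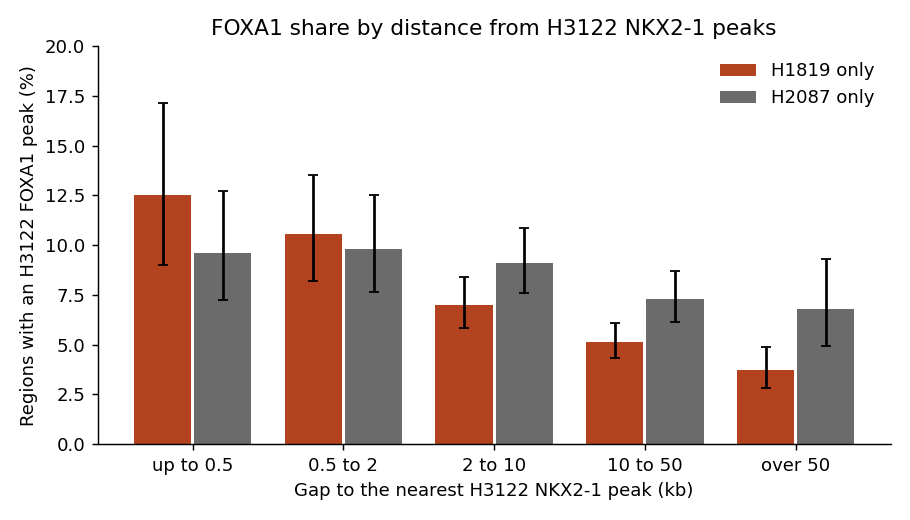
Percentage of regions with an H3122 FOXA1 peak (vertical axis) by gap to the nearest H3122 NKX2-1 peak in kb (horizontal axis), for H1819-only and H2087-only regions; bars are shares and error bars 95% Wilson intervals. H1819-only regions range from 12.5% in the closest group to 3.72% in the farthest.

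H1819-only regions with FOXA1 were spread widely, with 1 in each of 168 bands, 2 in each of 54 and 3 in each of 18. The most in any band was in 7p21.3, which held 10 of them among its 31 H1819-only regions, 32.3% (18.6 to 49.9). The next were 6p22.3 with 6 of 31 and 4q35.1 with 5 of 27, while 506 of the 752 bands that held an H1819-only region had none with FOXA1. The strongest in 7p21.3 lay on chromosome 7 from 12774889 to 12776079, with an H1819 score of 337 and a FOXA1 score of 339.6, and an H3122 NKX2-1 peak lay 32 bp away. A neighbour from 12777621 to 12778156 scored 86.0 for NKX2-1 and 169.0 for FOXA1. Across the 10 regions H1819 scores ran from 60.8 to 337, FOXA1 scores from 62.7 to 339.6, and gaps to H3122 NKX2-1 from 32 to 70294 bp. These bands were singled out after their counts were seen, and are given with no test.

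Taken as a whole, the H1819-only regions lay less often in lightly staining chromosome bands than H2087-only or shared H1819 regions did. Lightly staining Giemsa bands are rich in genes and replicate early, and the darkest bands are gene-poor. On the autosomes 58.3% (57.1 to 59.6) of H1819-only regions lay in unstained or the lightest stained bands, against 60.0% of all merged regions. The share was 73.3% (72.0 to 74.6) for H2087-only regions, and the difference of -15.0 points (-16.8 to -13.1) passed the test (Fisher's exact test, adjusted p = 1.09e-54 over 2 comparisons). For H1819 regions also found in another line it was 63.8% (62.7 to 64.9), a difference of -5.43 points (-7.12 to -3.74; Fisher's exact test, adjusted p = 3.24e-10). Regions of a band are not independent, so these p-values are too small.

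Per length of sequence, H1819-only regions had 1.14 times their autosomal mean density in unstained bands and 0.882 times in the darkest (gpos100). H1819 regions shared with another line had 1.25 and 0.640 times, and H2087-only regions 1.46 and 0.314 times. The darkest bands held 826 of the 5823 autosomal H1819-only regions, 14.2%. By score the difference from shared H1819 regions was not even. In the lowest decile of each set light bands held 59.0% of H1819-only and 64.7% of shared regions, but in the highest they held 53.6% of H1819-only and 53.9% of shared regions. FOXA1 was found at 8.38% (6.70 to 10.4) of H1819-only regions in the darkest bands and 5.56% (4.78 to 6.45) in unstained ones. The classes between had no steady course, with 6.58% in gpos25, 6.07% in gpos50 and 5.16% in gpos75, the lowest of the 5. Of the 20 strongest, 11 lay in the 2 darkest classes and 8 in the 2 lightest.

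**Figure D4:**
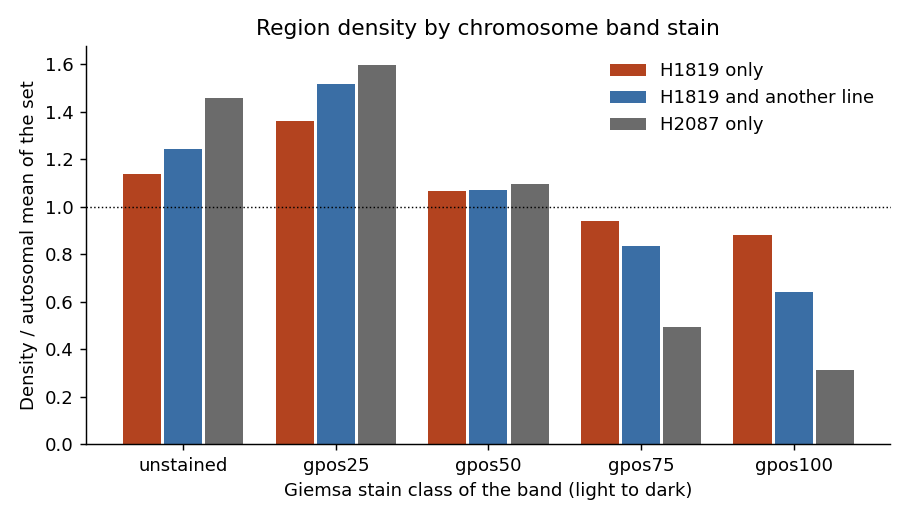
Density of regions relative to the autosomal mean of their own set (vertical axis, dotted line at 1) by Giemsa stain class of the band, light to dark (horizontal axis), for H1819-only regions, H1819 regions shared with another line, and H2087-only regions. H1819-only bars run from 1.14 in unstained to 0.882 in the darkest bands, and H2087-only bars from 1.46 to 0.314.

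Bands at the centromeres held 35 H1819-only regions, 0.586% (0.422 to 0.814), against 0.308% of all merged regions. They held 0.220% of H1819 regions shared with another line, a difference of 0.367 points (0.153 to 0.610; Fisher's exact test, adjusted p = 0.00196 over 2 comparisons), and 0.300% of H2087-only regions, a difference of 0.287 points (0.0180 to 0.546; adjusted p = 0.0397). The centromere comparison was added once these counts were known. The repeat content of these regions was not analysed here.

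By chromosome, the share of H1819 regions found in H1819 only was highest on the X chromosome and lowest on chromosome 19. On X it was 148 of 252, 58.7% (52.6 to 64.6; Fisher's exact test against all other chromosomes, adjusted p = 0.000143), and on chromosome 19 it was 150 of 462, 32.5% (28.4 to 36.9; adjusted p = 5.17e-07). These were the only ones of 23 chromosomes to pass, 8.70%, and 7 had an unadjusted p under 0.05. Chromosome 16 followed with 95 of 259, 36.7% (31.0 to 42.7), just outside the threshold at an adjusted p of 0.0507. Chromosomes differ in gene content as bands do, and the part of that in these shares was not tested. Without H3122 replicate 2 the number that passed was 9.

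**Figure D5:**
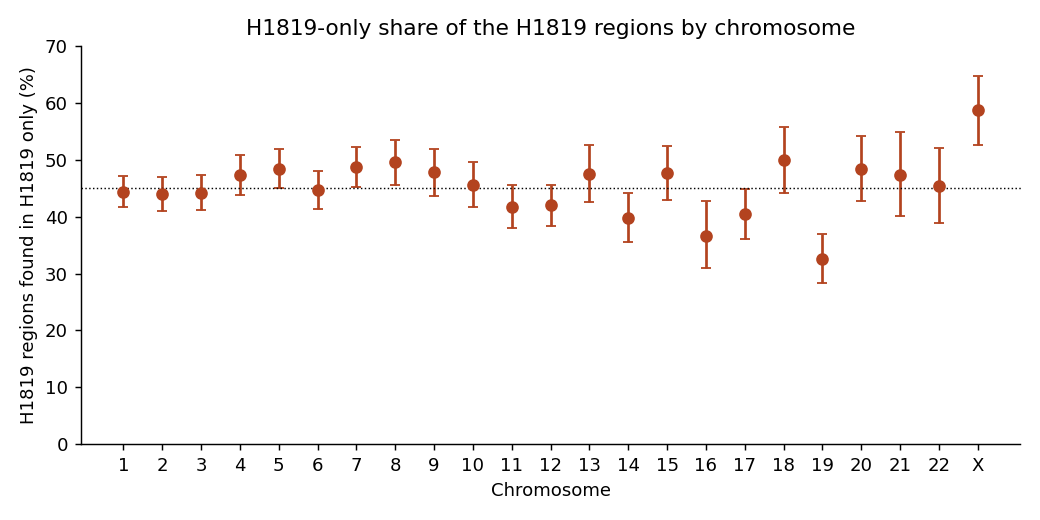
Percentage of H1819 NKX2-1 regions found in H1819 only (vertical axis) on each chromosome (horizontal axis); points are shares, error bars 95% Wilson intervals, and the dotted line is the genome-wide 45.0%. X lies above the line at 58.7% and chromosome 19 below it at 32.5%.

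H1819-only and H2087-only regions also differed in their shares by chromosome. Against H2087-only regions, H1819-only regions were distributed differently on 14 of 23 chromosomes (60.9%), with larger shares on 3, 4, 7, 8, 13, 18 and X and smaller shares on 1, 10, 11, 16, 17, 19 and 20. The widest gap was on chromosome 16, which held 1.59% of H1819-only and 4.61% of H2087-only regions (Fisher's exact test, adjusted p = 5.39e-18). Chromosome 18 held 2.34% of H1819-only and 1.18% of H2087-only regions, and chromosome 4 held 6.21% of H1819-only and 3.53% of H2087-only regions. The other H1819 regions had 2.25%, 1.92% and 5.67% on chromosomes 16, 18 and 4, closer to the H1819-only shares. On these 3 the difference was thus not particular to H1819-only regions. On chromosomes 19 and X the other H1819 regions had 4.28% and 1.43%, closer to the H2087-only 4.38% and 1.59%. The lists carry no copy number, and its part in these counts was not tested.

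In order along each chromosome, 75.4% of H1819-only regions had another as the next H1819 region on at least 1 side, and 17 runs held 10 or more. Since 45.0% of H1819 regions are H1819-only, most would have such a neighbour in any order, and whether they cluster was not tested. By distance, 10.8% had another H1819-only region within 1000 bp. The longest run was 26 regions in 1q32.2, over 1.99 Mb of chromosome 1 from 206468570 to 208462709, in which every H1819 region was H1819-only. Their scores ran from 70.8 to 1008 with a median of 150.3, and 1 had a FOXA1 peak. The other lists were sparse there, with 5 H2087 regions and 3 and 10 regions of the H3122 replicates. The strongest of the 26 lay from 207587347 to 207588290 (score 1008), 207614991 to 207615617 (score 763) and 207673018 to 207673737 (score 740).

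The next runs held 15 regions in 21q21.3 (chromosome 21, 26784777 to 28578856), 14 in 11q14.3 (chromosome 11, 90627046 to 92219813), 14 from Xp22.11 to Xp21.2 (X chromosome, 23872380 to 31128112) and 12 in 2q24.3 (chromosome 2, 165099827 to 166149425). In the 21q21.3 run the strongest region scored 1350 (27341115 to 27342197), H2087 had no region and H3122 replicate 2 had 2. This band holds APP and ADAMTS1. In the 2q24.3 run H3122 replicate 2 had 20 regions among the 12 of H1819. In the run on the X chromosome, over 7.26 Mb, it had 22 among the 14 of H1819, and H2087 had 4. That H1819 and H3122 peaks do not overlap in these runs follows from the rule.

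Windows of 1 Mb held 1.98 H1819-only regions on average, and 68.0% of windows held at least 1. The densest, at 207 to 208 Mb of chromosome 1, is part of the 1q32.2 run, and all 19 of its H1819 regions were H1819-only, 9.62 times the mean. It was followed by 184 to 185 Mb of chromosome 4 (4q35.1) with 18 of 21, 12 to 13 Mb of chromosome 12 with 16 of 30, and 63 to 64 Mb of chromosome 14 (14q23.2) with 14 of 23. The chromosome 12 window differed from the first in that H2087 had 23 regions there and H3122 replicate 2 had 46. Windows in 4p14 to 4p13, 8q21.13 and 10q26.12 to 10q26.13 were tied at 13.

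Among all bands, 1q41 and 5q11.2 held most H1819-only regions with 32 of 53 H1819 regions each. They were followed by 6p22.3 with 31 of 78, 7p21.3 with 31 of 51 and 19p13.2 with 30 of 72. The shares in 6p22.3 (39.7%) and 19p13.2 (41.7%) were below the 45.0% of all H1819 regions, and those in the others above it. Among the 525 bands with at least 10 H1819 regions, the share of them that was H1819-only had a median of 44.8%. It was highest in 11q14.3, the band of the tyrosinase gene, with 25 of 27, 92.6% (76.6 to 97.9). This 4.4 Mb band held no H2087 region, 1 region of H3122 replicate 1 and 17 of replicate 2. Its strongest H1819-only regions were neighbours, from 89818936 to 89820268 with a score of 1527 and from 89820889 to 89821853 with a score of 1206. The strongest H1819 region of the band was nonetheless a shared one, from 90603292 to 90604541, with scores of 2439 in H1819 and 59.5 and 790 in the H3122 replicates. Bands 5p15.2 with 13 of 15, 18q12.3 with 10 of 12, and 12q24.21 and 7q21.2 with 9 of 11 each came next.

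The lowest shares were in 12q13.2 and 3q26.33, each with 1 H1819-only region of 15, 6.67% (1.19 to 29.8). Their H1819-only regions were weak, with scores of 70.8 and 62.2. In 11q13.1, 4 of 45 H1819 regions were H1819-only, 8.89% (3.51 to 20.7), while H2087 had 51 regions of its own there. Bands 11p14.2 with 1 of 11, and 10p11.21 and 16q24.1 with 1 of 10 each, completed the lowest. In 3q26.33, the band of the foregut factor gene SOX2, H1819 had 15 regions, against 95 in H3122 replicate 2.

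In the bands listed for 20 genes of lung lineage, receptor kinase signalling and NKX2-1 function, 151 of 386 H1819 regions were H1819-only, 39.1% (34.4 to 44.1). The share over all H1819 regions was 45.0%. Each of the 20 bands held at least 1. A band holds many genes, so these counts describe bands and not the genes. In 14q13.3, the band of NKX2-1 itself and part of the amplification the labels name, 5 of 15 H1819 regions were H1819-only, 33.3% (15.2 to 58.3). The strongest of the 5 lay on chromosome 14 from 36068146 to 36068861 with a score of 394, and the next from 36076924 to 36077532 with a score of 240.5. The other 3, from 36038092 to 36038528, 36493038 to 36493498 and 36493844 to 36494270, scored 73.2 to 84.3. No FOXA1 peak overlapped any of the 5.

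Among transcription factor bands, that of FOXA1 (14q21.1) had 4 of 15, that of FOXA2 (20p11.21) 4 of 10, and that of the endodermal factor GATA6 (18q11.2) 9 of 30. The bands of the surfactant protein genes SFTPB (2p11.2), SFTPC (8p21.3) and SFTPD (10q22.3) had 13 of 26, 12 of 20 and 9 of 18. The band of NAPSA (19q13.33), an aspartic protease of lamellar bodies, had 2 of 13. For the bands listed for the club cell genes SCGB1A1 (11q12.3) and SCGB3A2 (5q32) the counts were 6 of 20 and 6 of 14. The 5q32 band used here ends at 147200000, and the hg18 position of SCGB3A2 was not checked against that end. The gene may lie outside this band. Among receptor kinase bands, that of ROR1 (1p31.3) had 22 of 34, that of EGFR (7p11.2) 10 of 17, that of MET (7q31.2) 13 of 28, that of ERBB2 (17q12) 6 of 18 and that of ERBB3 (12q13.2) 1 of 15. The share was highest of the 20 in the ROR1 band at 64.7% (47.9 to 78.5) and lowest in the SOX2 (3q26.33) and ERBB3 bands at 6.67% (1.19 to 29.8) each, followed by the NAPSA band at 15.4% (4.33 to 42.2). These bands were picked as the extremes of 20, with no test. The junction gene bands of CDH1 (16q22.1) and CLDN18 (3q22.3) had 6 of 20 and 6 of 12. LMO3 (12p12.3) and HMGA2 (12q14.3), linked to NKX2-1 in lung adenocarcinoma, lie in bands with 11 of 32 and 5 of 14. The strongest H1819-only regions of these bands were in the EGFR band (score 1123) and the SFTPB band (score 1051).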

How the data were processed

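NKX2-1 or FOXA1 chromatin immunoprecipitation sequencing gave 5 peak lists. Per the submitters' processing notes the authors used Bowtie, MACS 1.4.0 and the build hg18, and deposited 1 list per sample. The deposited score of each peak is read here as 10 times −log10 p, a scale not given in the sources used here. The sources used here do not say which input served which list, or how deep the libraries were. Members and lists of genes were chosen with earlier results of these data known.

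Lists were merged at 1 bp of overlap on chromosomes 1 to 22 and X. Shares carry 95% Wilson intervals, differences Newcombe intervals, and tests are two-sided Fisher's exact tests over regions with Benjamini-Hochberg adjustment at 0.05 (scipy 1.17.1, statsmodels 0.14.6). Differences within width quintiles instead have Mantel-Haenszel weights, a normal 95% interval and a Cochran-Mantel-Haenszel test. Odds ratios per unit of score come from logistic models with Wald intervals. Scripts were tested on simulated data. Neighbouring regions are not independent, so p-values are too small. Intervals cover counting error only. Bands came from the hg18 table of circlize 0.4.16, chromosome lengths from GenomeInfoDb 1.38.1, and the bands of named genes from general knowledge. Named regions are the 20 highest by score, the 10 highest with FOXA1, the 5 widest and those at the rule's edge; named bands hold most regions or the extreme shares. No hg18 genome or annotation was used here, so sequences, motifs, promoters and nearest genes were not analysed.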

Additional observations from a re-analysis of the deposited data

How the results depend on the processing

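Of 63 recomputed values of 14 results, 51 kept their direction and side of the threshold or stayed within 1.5 times or the interval of the value given above. Leaving out H3122 replicates gave 5989 to 9465 H1819-only regions, or 45.2% to 70.7% of H1819 regions. The same share was 48.4% with scores of at least 100 in every list, 41.9% (3448 regions) with that limit on H1819 alone, 65.6% over the best 7000 peaks of each list, and 42.9% with peaks up to 500 bp apart merged. The FOXA1 share of H1819-only regions minus that of regions in H1819 and H2087 without H3122 was -12.0 to -0.580 points without an H3122 replicate, 0.771 with scores of at least 100, and -3.83 (adjusted p = 0.0419, Fisher's exact test) with FOXA1 within 500 bp. Chromosomes that differed from other H1819 regions numbered 3 to 9, and the odds ratio for FOXA1 per log10 unit of score was 0.773 to 1.91, without an H3122 replicate. The cause was not tested, except that leaving out replicate 2 adds regions that it holds. The differences from H2087-only regions, in FOXA1 and in light bands, kept their sign and passed in every alternative run. In the gap groups up to 2000 bp from an H3122 NKX2-1 peak, however, the FOXA1 share was higher in H1819-only regions. No paired analysis was possible because H1819 and H2087 have 1 list each. Comparisons of motifs and promoters were not run, since no hg18 genome was used. With 1 H1819 list of unknown depth, absence from a list is not absence of binding.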
